A study of Mus musculus with 4 samples.

Results

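The 9 genes described here belong to PDGF signalling or encode surface, secreted and signalling proteins studied alongside it, and were measured in oncogene-transformed mouse liver progenitor cultures. They are the ligand genes Pdgfa, Pdgfb and Pdgfc, the receptor genes Pdgfra and Pdgfrb, the G-protein regulator gene Rgs5, and Alcam, Ecm1 and Thy1. The genes were given by name, and every probe set that the platform annotation assigns to 1 symbol among them was taken. This gave 9 genes and 22 probe sets, of 18193 genes and 34945 probe sets with 1 symbol on the array.

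The cells were progenitors from fetal livers of p53-/- mice, so the non-transformed culture lacks p53 as well. The 4 groups are cells labelled as transformed with H-RasV12 (a constitutively active Ras), with myr-Akt (an Akt that a myristoyl tag tethers to the membrane) or with c-Myc (a growth-promoting transcription factor), and non-transformed cells. All were grown with 10% serum, EGF at 20 ng/ml, HGF at 50 ng/ml and dexamethasone. In what follows, with H-RasV12, with myr-Akt and with c-Myc stand for the cultures so labelled. Each group is 1 array. No spread between cultures can be had, no test was possible, and every difference below is one between arrays. Whether a culture came from 1 clone or from a pool is not stated in the labels, nor is the age of the embryos.

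Platelet-derived growth factors are dimers that bring together receptor tyrosine kinases of the alpha and beta type and so start RAS, PI3-kinase and phospholipase C-gamma signalling. In the liver the receptors lie mainly on stellate cells, the vitamin A-storing pericytes of the sinusoids, for which PDGF is a strong mitogen, and on other fibroblasts, while ligands come from neighbouring epithelial, endothelial and blood cells. Of the other genes, Rgs5 marks pericytes and shortens G-protein signalling, Thy1 marks portal fibroblasts, Alcam is an adhesion molecule found on mesothelial cells and their descendants in fetal liver, and Ecm1 is a secreted matrix protein.

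Promoter windows are shown for the 4 genes with a window that were lower with both myr-Akt and c-Myc and, beside them, for Alcam, the 1 gene of the 9 within 2-fold in every comparison with non-transformed cells. Each window holds 250 bases before and 50 bases after the start site, from RefSeq on GRCm38.p6, 5′ to 3′ on the strand of the gene. Of the 9 genes, 6 had a window, 7 windows in all, and Pdgfb, Pdgfrb and Thy1 are named only. Pdgfra lies at chr5:75152001-75152300 (plus strand), Rgs5 at chr1:169655251-169655550 (plus), Ecm1 at chr3:95739520-95739819 (minus), Pdgfc at chr3:81036166-81036465 (plus) and Alcam at chr16:52453032-52453331 (minus). Capitals mark matches, on either strand, to the E-box CACGTG, the AP-1 site TGANTCA, the forkhead site GTAAACA, the TEAD site GGAATG, the GC box GGGCGG, the TATA box TATAAA, the CCAAT box CCAAT and the CArG box bound by serum response factor.
Pdgfra: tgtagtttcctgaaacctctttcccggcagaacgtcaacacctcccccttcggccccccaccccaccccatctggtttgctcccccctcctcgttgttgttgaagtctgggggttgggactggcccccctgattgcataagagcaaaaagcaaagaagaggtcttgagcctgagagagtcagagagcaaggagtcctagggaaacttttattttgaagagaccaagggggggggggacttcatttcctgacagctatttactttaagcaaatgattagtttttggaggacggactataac
Rgs5: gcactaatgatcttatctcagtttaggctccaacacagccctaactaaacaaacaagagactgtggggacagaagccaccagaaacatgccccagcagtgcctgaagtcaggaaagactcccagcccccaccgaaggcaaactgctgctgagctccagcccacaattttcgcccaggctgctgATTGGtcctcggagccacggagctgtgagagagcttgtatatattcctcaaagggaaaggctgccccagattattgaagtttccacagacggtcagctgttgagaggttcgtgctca
Ecm1: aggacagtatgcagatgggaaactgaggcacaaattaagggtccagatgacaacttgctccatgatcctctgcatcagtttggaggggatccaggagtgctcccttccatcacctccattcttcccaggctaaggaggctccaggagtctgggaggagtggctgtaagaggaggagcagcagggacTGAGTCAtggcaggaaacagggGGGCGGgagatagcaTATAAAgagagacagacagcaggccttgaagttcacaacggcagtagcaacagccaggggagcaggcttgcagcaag
Pdgfc: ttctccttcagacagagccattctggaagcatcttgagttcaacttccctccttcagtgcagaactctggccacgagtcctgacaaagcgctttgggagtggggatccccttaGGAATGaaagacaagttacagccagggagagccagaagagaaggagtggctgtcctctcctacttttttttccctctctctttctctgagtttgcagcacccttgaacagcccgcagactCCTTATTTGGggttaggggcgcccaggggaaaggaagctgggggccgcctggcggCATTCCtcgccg
Alcam: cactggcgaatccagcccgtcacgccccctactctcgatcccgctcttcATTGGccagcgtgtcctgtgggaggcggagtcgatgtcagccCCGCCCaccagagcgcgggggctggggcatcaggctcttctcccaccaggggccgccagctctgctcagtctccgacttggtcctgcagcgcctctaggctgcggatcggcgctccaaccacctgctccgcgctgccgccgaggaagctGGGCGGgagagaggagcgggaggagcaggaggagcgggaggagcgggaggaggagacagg

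In the Ecm1 window an AP-1 site began at base -64, a GC box at -42 and a TATA box at -27, counted from the start site. Of 32851 windows in the table, 7.81% held the AP-1 site, 35.7% the GC box and 13.6% the TATA box. Pdgfc held a CArG box at -17, found in 1.63% of windows, and 2 TEAD sites, found in 14.7%. Rgs5 held 1 CCAAT box, found in 37.4% of windows, and Alcam held 2 GC boxes and 1 CCAAT box. None of these letters occurred in the Pdgfra window, and neither the E-box (7.15% of windows) nor the forkhead site (3.65%) occurred in any of the 7. No 2 matches overlapped. A match describes the letters only. The windows also differed in CpG content. The observed over expected CpG ratio was 0.256 for Pdgfra, 0.294 for Rgs5, 0.353 for Pdgfc and 0.0932 for Ecm1, against 0.688 for Alcam and 0.766 and 0.940 for the 2 windows of Pdgfa, with a median of 0.384 over all windows. The 4 genes with the lower ratios were all at least 2-fold lower with myr-Akt and with c-Myc than in non-transformed cells, while Alcam and Pdgfa differed by less than 2-fold there. This is a description of 6 genes, and whether the ratio goes with such differences over all genes was not tested.

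Signals are in array units after each array was brought to the same trimmed mean, and 100.001, which is 20% of that mean, served as a floor. Values under the floor have no order, and a difference against them is a bound. Higher or lower in a count means by 2-fold or more, a log2 difference of at least 1 in size. Over the series, 9927 genes passed the floor with H-RasV12, 9512 with myr-Akt and 9492 with c-Myc, and 10216 in non-transformed cells. As a check of the labels, Myc had a signal of 1747.1 with H-RasV12, 639.7 with myr-Akt and 420.6 with c-Myc, against 2285.2 in non-transformed cells. Akt1 had 2760.3 with H-RasV12, 2833.9 with myr-Akt and 2991.3 with c-Myc, against 1870.1 in non-transformed cells. Myc was thus lowest in the culture labelled c-Myc, and Akt1 was not highest in that labelled myr-Akt. Neither signal bears out its label. Whether either probe set reads the introduced sequence is not known here, so neither signal can speak against its label. Every statement is therefore one on cultures as labelled.

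The plain pattern concerned both PDGF receptor genes, Rgs5 and Thy1, each by its brightest probe set. They were at the floor with myr-Akt and with c-Myc but above it with H-RasV12 and in non-transformed cells. Pdgfra was the dimmest of these, at 298.9 with H-RasV12 and 389.7 in non-transformed cells. The 3 ligand genes had lower signals in all 3 transformed cultures, with Pdgfa and Pdgfb past 2-fold with H-RasV12, Pdgfb and Pdgfc with myr-Akt and Pdgfc with c-Myc. Ecm1 was lower in all 3, and Alcam was within 2-fold of its level in non-transformed cells. With H-RasV12, 3 of the 9 genes (Pdgfa, Pdgfb and Ecm1) were lower and 0 higher, and of the 10679 genes that passed the floor on any array 6.27% were lower and 2.08% higher. With myr-Akt, 7 of 9 were lower, all but Pdgfa and Alcam, and 0 higher, where 12.7% of all genes were lower and 4.90% higher. With c-Myc, 6 of 9 were lower, the same without Pdgfb, and 0 higher, where 11.3% of all genes were lower and 4.42% higher. Their median log2 difference was -0.69 with H-RasV12, and, as a bound set by Pdgfra at the floor, -1.96 or lower with both myr-Akt and c-Myc, and that of all genes 0.0029, -0.015 and 0. Of the lower genes, 5 with myr-Akt and 4 with c-Myc are bounds. With the mean over all probe sets of a gene 4 in place of 7 were lower with myr-Akt. That mean also took Pdgfra and Rgs5 under 2-fold with c-Myc, and Pdgfb with H-RasV12. All 9 genes were above the floor in non-transformed cells, and among the 10216 such genes 6.56%, 13.2% and 11.9% were lower in the same order of cultures. The 3 comparisons share the one non-transformed array. In RNA of a whole culture, fewer cells of a type and less RNA per cell cannot be told apart.

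**Figure D1:**
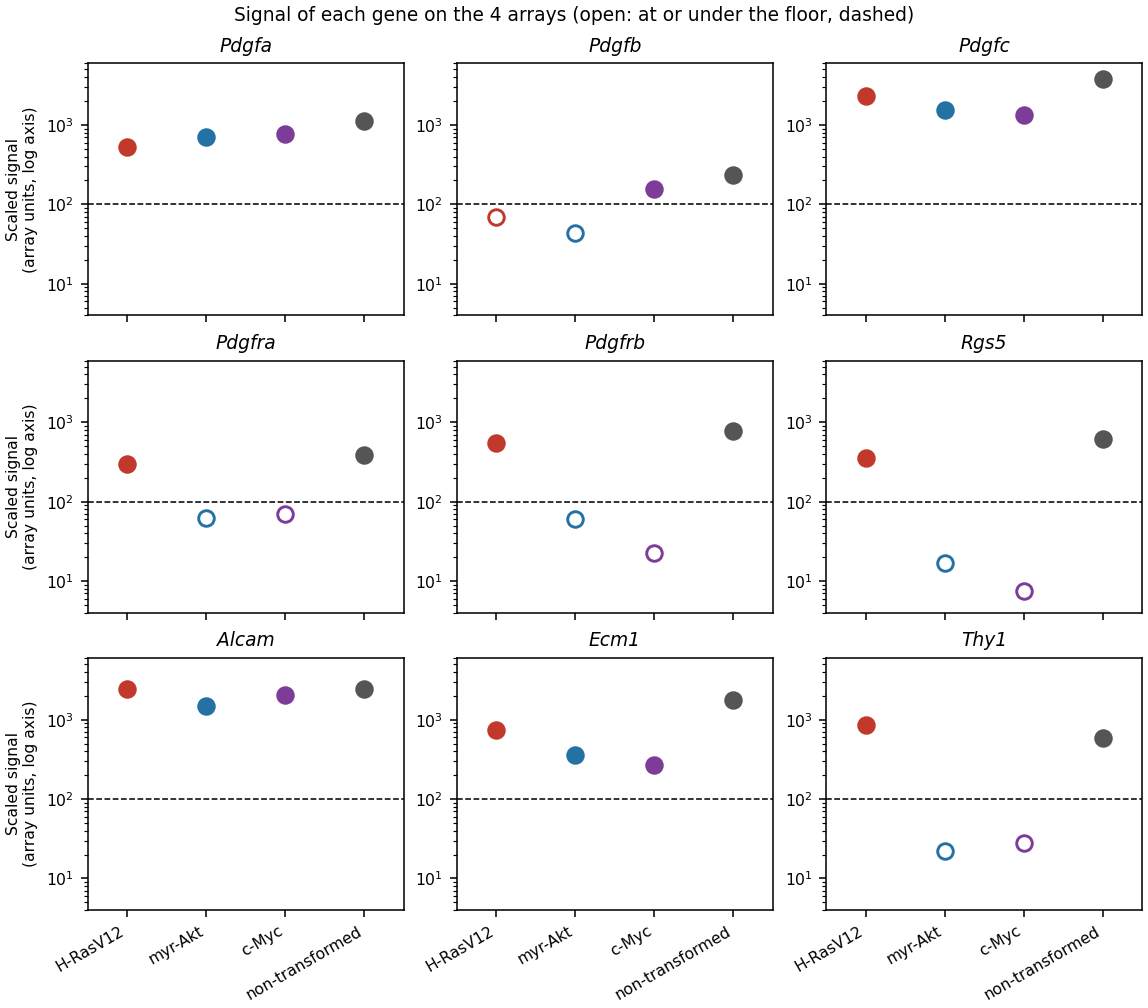
Scaled signal (array units, log axis) of each of the 9 genes on the 4 arrays, 1 point per array, with the floor of 100.001 as a dashed line and open points at or under it. Pdgfra, Pdgfrb, Rgs5 and Thy1 lie under the floor with myr-Akt and with c-Myc and above it on the other 2 arrays, while Pdgfa, Pdgfc, Alcam and Ecm1 lie above it on all 4.

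Among the ligands, Pdgfa encodes the A chain, which binds the alpha receptor. Its probe set 1449187_at had a signal of 532.5 with H-RasV12, 695.7 with myr-Akt and 761.1 with c-Myc, against 1121.9 in non-transformed cells. The culture labelled H-RasV12 was thus the lowest, by 2.11 times (log2 difference -1.08), and those labelled myr-Akt and c-Myc were 1.61 and 1.47 times lower. The other probe set of Pdgfa gave the same order, with 343.2 with H-RasV12, 553.8 with myr-Akt and 686.2 with c-Myc against 906.5 in non-transformed cells and log2 differences of -1.40, -0.71 and -0.40. The difference for H-RasV12 sat near the 2-fold line, at -0.95 when a pseudocount replaced the floor.

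Pdgfb encodes the B chain, which binds both receptors and is the form best known to drive stellate cells. Its brighter probe set, 1450414_at, had signals of 68.5 with H-RasV12, 43.5 with myr-Akt and 155.4 with c-Myc, against 233.1 in non-transformed cells. The first 2 are under the floor, so Pdgfb was at least 2.33 times lower in both, and its log2 difference with c-Myc was -0.58. The gene was dim throughout. With the floor raised to 40% of that mean, the bound for the first 2 shrank to a log2 difference of -0.22, and the second probe set was under the floor on every array.

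Pdgfc encodes a chain that is secreted in latent form and binds the alpha receptor once its CUB domain is cut off. Probe set 1449351_s_at had a signal of 2315.4 with H-RasV12, 1549.3 with myr-Akt and 1328.5 with c-Myc, against 3742.2 in non-transformed cells. It was 2.42 times lower with myr-Akt (log2 difference -1.27) and 2.82 times lower with c-Myc (-1.49), and 1.62 times lower with H-RasV12 (-0.69). Thus the order of the transformed cultures was the reverse of that for Pdgfa. The second probe set of Pdgfc gave -0.84, -1.27 and -1.41, within 0.15 log2 units of the first.

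Of the receptors, Pdgfra encodes the alpha form. Probe set 1421917_at had signals of 298.9 with H-RasV12, 62.8 with myr-Akt and 69.1 with c-Myc, against 389.7 in non-transformed cells. The gene was at least 3.90 times lower with myr-Akt and with c-Myc, and 1.30 times lower with H-RasV12. Its 2 other probe sets were under the floor on all arrays. With the floor raised to 40% the bound fell just short of 2-fold (-0.96), as the signal in non-transformed cells is itself low.

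Pdgfrb encodes the beta receptor, the one that stellate cells and pericytes are classically recognised by. Probe set 1436970_a_at had a signal of 554.8 with H-RasV12, 60.8 with myr-Akt and 22.8 with c-Myc, against 769.8 in non-transformed cells. It was at least 7.70 times lower with myr-Akt and with c-Myc and 1.39 times lower with H-RasV12. The second probe set, 1417148_at, was at 107.9 with H-RasV12, 29.5 with myr-Akt and 20.5 with c-Myc against 100.3 in non-transformed cells, so its 2 higher values lay at the floor and its bound of -0.0043 for myr-Akt and c-Myc says nothing of size.

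Rgs5, the pericyte regulator of G-protein signalling, had signals of 356.1 with H-RasV12, 17.0 with myr-Akt and 7.6 with c-Myc by probe set 1417466_at, against 623.2 in non-transformed cells. It was at least 6.23 times lower with myr-Akt and with c-Myc and 1.75 times lower with H-RasV12 (-0.81). Of its 4 probe sets, 1420942_s_at was under the floor on every array and 1420941_at passed it in non-transformed cells alone, at 115.3. The next brightest, 1420940_x_at, had 147.7 with H-RasV12, 30.5 with myr-Akt and 6.8 with c-Myc against 176.5 in non-transformed cells, lower on the same 2 arrays but with a bound of only -0.82. An _x_at probe set may also bind other transcripts.

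Thy1 encodes a GPI-anchored surface protein of fibroblasts, T cells and neurons. Its single probe set, 1423135_at, had signals of 856.0 with H-RasV12, 22.2 with myr-Akt and 28.0 with c-Myc, against 589.1 in non-transformed cells. By brightest probe set, Thy1 was thus the 1 gene of the 9 with a higher signal in a transformed culture than in non-transformed cells. The difference was 1.45 times with H-RasV12 (log2 difference 0.54, under 2-fold). Some other probe sets of Pdgfrb and Alcam were also higher there, by less than 2-fold. With myr-Akt and c-Myc Thy1 was at least 5.89 times lower.

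Ecm1, extracellular matrix protein 1, is known in mouse liver for holding TGF-beta in its latent state. Probe set 1448613_at, the only one, had signals of 732.7 with H-RasV12, 361.9 with myr-Akt and 267.1 with c-Myc, against 1775.8 in non-transformed cells. Ecm1 was 2.42 times lower with H-RasV12 (-1.28), 4.91 times with myr-Akt (-2.29) and 6.65 times with c-Myc (-2.73). It was the 1 gene of the 9 at least 2-fold lower in all 3 transformed cultures, and with all 4 signals above the floor these are measured differences, not bounds. Of all genes, 4.02%, 2.59% and 1.34% were as far down in the same 3 comparisons.

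Alcam, activated leukocyte cell adhesion molecule, had signals of 2430.7 with H-RasV12, 1478.6 with myr-Akt and 2050.6 with c-Myc by its brightest probe set, 1426300_at, against 2461.2 in non-transformed cells. The log2 differences were -0.018, -0.74 and -0.26, all under 2-fold. A further 4 probe sets measured it, which gives a view of how far probe sets of 1 gene part. Across all 5, the differences ran between -0.018 and 0.57 with H-RasV12, between -0.74 and 0.54 with myr-Akt and between -0.26 and 0.35 with c-Myc. The dim probe set 1443086_at, at 121.8 in non-transformed cells, gave the upper end each time. The signs of Alcam's small differences therefore rest on the probe set chosen.

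**Figure D2:**
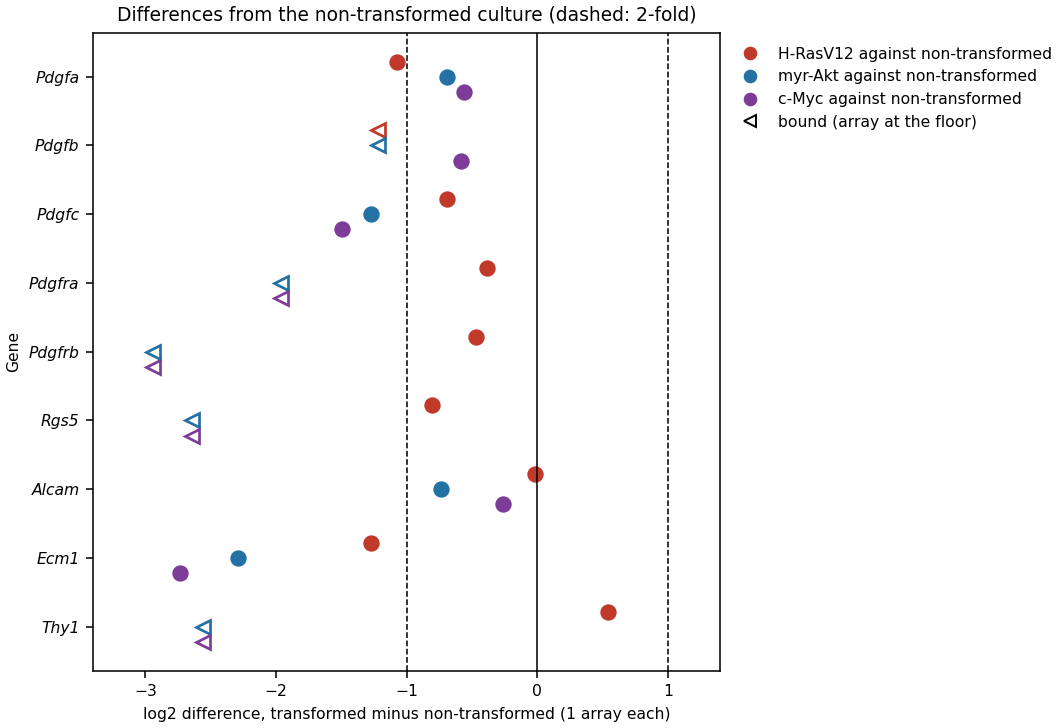
Log2 difference of each gene, transformed minus non-transformed, 1 array each, with filled circles for measured differences, open triangles for bounds where the transformed array is at the floor, and dashed lines at 2-fold. The triangles for Pdgfra, Pdgfrb, Rgs5 and Thy1 lie between -1.96 and -2.94, Ecm1 lies left of -1 in all 3 comparisons, and Alcam lies within 2-fold in all 3.

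Set directly against each other, without the non-transformed array, 5 of the 9 genes were past 2-fold between H-RasV12 and either of the other cultures, and 0 between myr-Akt and c-Myc. Between H-RasV12 and myr-Akt these 5 of 9 were all higher with H-RasV12, and 13.7% of all genes differed in either direction. Between H-RasV12 and c-Myc it was 5 of 9, also all higher with H-RasV12, against 13.9%. Between myr-Akt and c-Myc it was 0 of 9, against 3.54%, and 4 of the genes were at the floor on both arrays. Pdgfb was above the floor with c-Myc alone among the 3, so its log2 difference is a bound of -0.64 both for H-RasV12 and for myr-Akt against c-Myc, which does not exclude 2-fold. With the floor at 10% it came to -1.18 for H-RasV12 and to a bound of -1.64 for myr-Akt, and was then the 1 gene past 2-fold that was lower with H-RasV12 than with c-Myc. Thy1 was at least 8.56 times higher with H-RasV12 than with myr-Akt or with c-Myc. Pdgfrb was at least 5.55 times higher, Rgs5 at least 3.56 times and Pdgfra at least 2.99 times in both, bounds that have no order among them. Ecm1 was 2.02 times higher with H-RasV12 than with myr-Akt, and 2.74 times higher than with c-Myc. The first of these, 1.02 on the log2 scale, came to 0.93 under quantile normalisation and 0.85 with a pseudocount. With the floor raised to 40%, Rgs5 (0.83) and Pdgfra (0.58) were no longer 2-fold apart between H-RasV12 and either of the other 2.

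Where a gene had several probe sets, these served as the one internal check the data allow. Of the 22 probe sets, 18 passed the floor on some array, 10 did on all 4, and 4 on none. For Pdgfa and Pdgfc both probe sets kept every direction. For Pdgfra, Pdgfrb and Pdgfb the finding rests on 1 probe set above the floor, since the others were at or near it, and for Ecm1 and Thy1 only 1 exists.

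**Figure D3:**
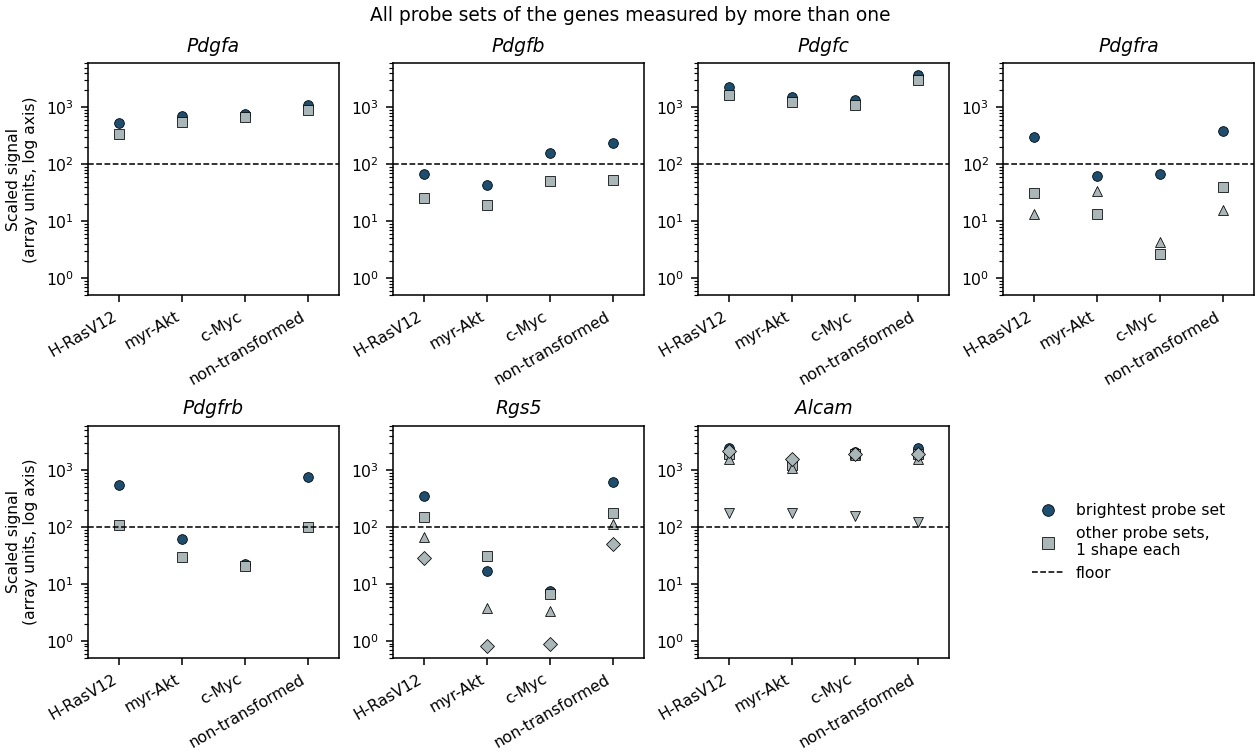
Scaled signal (array units, log axis) of every probe set of the 7 genes measured by more than 1, by array, with the brightest probe set in dark blue, the others in grey and the floor of 100.001 dashed. The probe sets of Pdgfa and of Pdgfc run in parallel, while the dimmer ones of Pdgfb and Pdgfra stay under the floor on all arrays.

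The PDGF pathway was also read from gene lists. For scale, 6.27% of all genes above the floor on any array were lower with H-RasV12, 12.7% with myr-Akt and 11.3% with c-Myc. Higher were 2.08%, 4.90% and 4.42% in the same order. The ligand list counts Pdgfa, Pdgfb and Pdgfc, and the receptor list Pdgfra and Pdgfrb. The counts and medians of these 2 lists are therefore not separate from the values above. Among the lower ligand-list genes below are Pdgfa and Pdgfb with H-RasV12, Pdgfb and Pdgfc with myr-Akt and Pdgfc with c-Myc. Of 11 genes for ligands and the proteases that process them, 9 passed the floor on some array. Of these, 0 were higher and 3 lower with H-RasV12 (median log2 difference -0.57), 0 and 4 with myr-Akt (-0.88) and 1 and 3 with c-Myc (-0.58). Pcsk6, a proprotein convertase, had signals of 4224.0 with H-RasV12, 78.8 with myr-Akt and 229.6 with c-Myc, against 2159.9 in non-transformed cells. It was at least 21.6 times lower with myr-Akt and 9.41 times lower with c-Myc, and 1.96 times higher with H-RasV12. Plat, tissue plasminogen activator, which cuts the latent C chain, had 2352.1 with H-RasV12, 330.8 with myr-Akt and 389.2 with c-Myc against 1510.1 in non-transformed cells. It was 4.57 and 3.88 times lower with myr-Akt and c-Myc and 1.56 times higher with H-RasV12. Pcsk5, another convertase, ran the other way, at 69.4 with H-RasV12, 359.3 with myr-Akt and 652.9 with c-Myc against 281.1 in non-transformed cells. Pdgfd, the remaining ligand gene, was dim, at 117.2 with H-RasV12, 87.1 with myr-Akt and 49.7 with c-Myc against 174.0 in non-transformed cells. Plau and St14, which encode proteases that can activate the D chain, were under the floor on every array.

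Of 6 receptor and co-receptor genes, 0 were past 2-fold with H-RasV12 (median -0.40), 3 were lower with myr-Akt (-1.24) and 4 with c-Myc (-1.61), and 0 were higher in any. Besides Pdgfra and Pdgfrb, the lower genes were Lrp1 with myr-Akt, and Lrp1 and Nrp1 with c-Myc. Lrp1, an endocytic receptor that associates with the beta receptor, followed the receptor genes. Its signals were 3830.9 with H-RasV12, 700.3 with myr-Akt and 535.4 with c-Myc, against 3847.8 in non-transformed cells, which makes it 5.49 and 7.19 times lower with myr-Akt and c-Myc. Nrp1, a co-receptor, was 2.39 times lower with c-Myc.

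Of 29 adaptor and effector genes, 2 were lower with H-RasV12 (median -0.094), 3 with myr-Akt (-0.15) and 3 with c-Myc (-0.28), and 0 were higher. The counts of lower genes are near the shares over all genes given above. Src, a kinase recruited to the activated receptor, had a signal of 509.0 with H-RasV12, 141.9 with myr-Akt and 225.6 with c-Myc, against 500.9 in non-transformed cells. Sphk1, sphingosine kinase, was at least 2.71 times lower with myr-Akt and with c-Myc. With H-RasV12 the 2 lower genes were others, namely Slc9a3r1, a scaffold that binds the receptor tail (2.71 times), and Gab1, a docking protein (2.25 times).

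Of 13 phosphatase and turnover genes above the floor, 1 was higher and 2 lower with H-RasV12 (median 0.28), 0 and 2 with myr-Akt (-0.43) and 0 and 1 with c-Myc (-0.069). Ptprj, a phosphatase that dephosphorylates the beta receptor, was 3.28 times lower with H-RasV12, at 100.6 against 330.2 in non-transformed cells. Cav1, the main caveolar protein, was 2.36, 4.91 and 2.03 times lower with H-RasV12, myr-Akt and c-Myc. Lrig1, which restrains receptor kinases, was 2.34 times lower with myr-Akt.

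Early response genes are switched on soon after PDGF binds its receptors, and also by serum, EGF and HGF, which were all in this medium. Of 35 such genes, 3 were higher and 11 lower with H-RasV12 (median -0.40), 1 and 13 with myr-Akt (-0.55) and 0 and 10 with c-Myc (-0.73). Fosl1, an AP-1 subunit, was 2.01 times higher with H-RasV12, and 5.14 and 10.1 times lower with myr-Akt and c-Myc. Dusp6, an ERK phosphatase, was 1.33 times higher with H-RasV12, and 6.98 and 2.72 times lower with myr-Akt and c-Myc. Ccl7, a monocyte chemokine, was lower in all 3, by 8.67 times with H-RasV12, 2.89 times with myr-Akt and 4.04 times with c-Myc. Cxcl1, a neutrophil chemokine, was 5.89 times lower with H-RasV12 and within 2-fold in the other 2. Egr1, a zinc finger factor, stayed within 2-fold in all 3, at 13222 with H-RasV12, 11191 with myr-Akt and 13204 with c-Myc against 10598 in non-transformed cells.

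**Figure D4:**
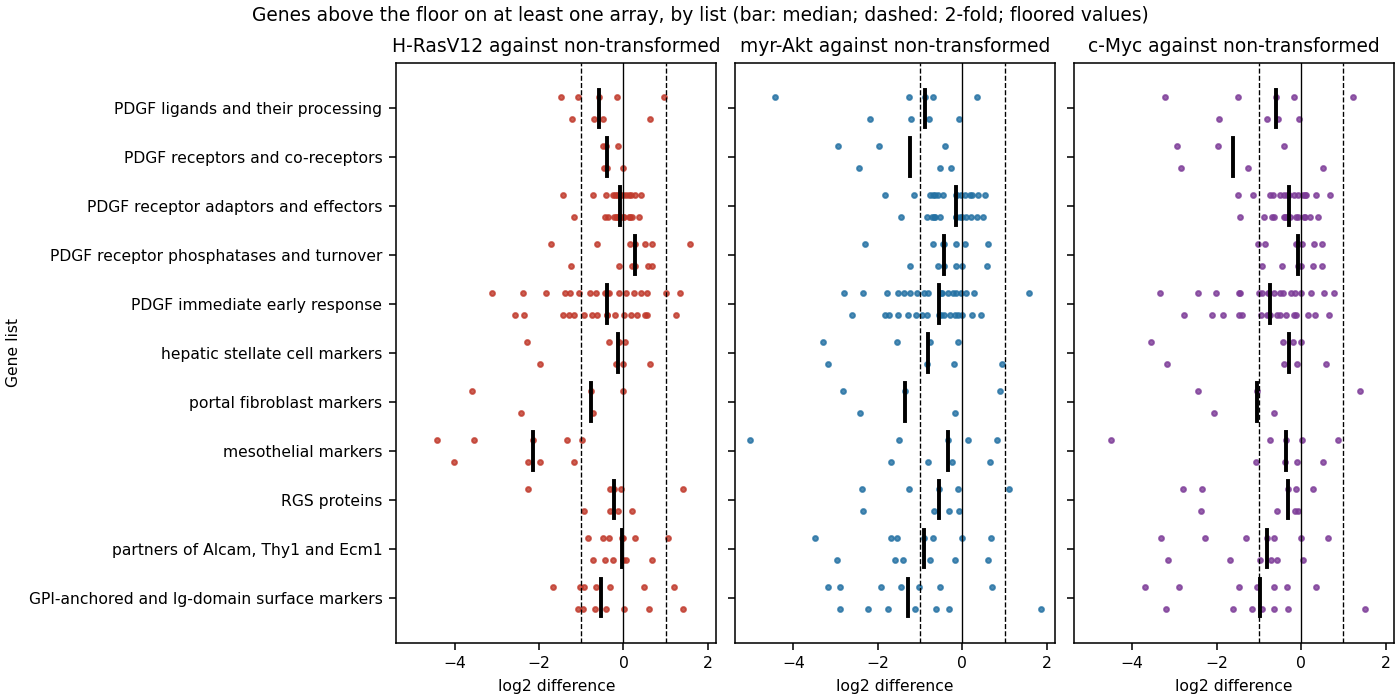
Log2 difference of each gene above the floor on at least 1 array, by list (rows) and comparison (panels), transformed minus non-transformed, with a bar at each list's median and dashed lines at 2-fold. The receptor and co-receptor list, which counts Pdgfra and Pdgfrb, has medians of -0.40, -1.24 and -1.61 and the adaptor list -0.094, -0.15 and -0.28.

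The name stellate was checked against markers of that cell type. Of 16 stellate genes with a probe set, 8 passed the floor on some array. A set of 8 genes was taken as defining the type. Of that set, Lrat, which makes retinyl esters, Reln and Gfap were under the floor on all 4 arrays. The other 5, Des, Hand2, Lhx2, Cygb and Colec11, passed it on some array, and 4 did so in non-transformed cells. Lhx2 lay near the floor, at 102.1 with H-RasV12 and 114.8 in non-transformed cells. Colec11 passed it in non-transformed cells alone, at 107.5. Des, the muscle and stellate intermediate filament, had signals of 240.8 with H-RasV12, 119.4 with myr-Akt and 67.8 with c-Myc, against 1174.7 in non-transformed cells. It was 4.88 and 9.84 times lower with H-RasV12 and myr-Akt and at least 11.7 times lower with c-Myc. Hand2, a transcription factor of stellate cells, was above the floor on all 4 arrays (2068.4 with H-RasV12, 1125.7 with myr-Akt and 1488.4 with c-Myc against 2007.1 in non-transformed cells), as was Acta2, smooth muscle actin. Nes, an intermediate filament of activated stellate cells, had 1402.4 with H-RasV12, 26.3 with myr-Akt and 30.1 with c-Myc against 904.7 in non-transformed cells, above the floor on the same arrays as Thy1. Tcf21, a mesenchymal transcription factor, ran otherwise, at 41.0 with H-RasV12, 133.4 with myr-Akt and 589.0 with c-Myc against 392.8 in non-transformed cells. Cygb, a globin of stellate cells, passed the floor with myr-Akt alone, at 192.1. In all, 2, 3 and 2 of the 8 stellate genes above the floor were lower with H-RasV12, myr-Akt and c-Myc and 0 higher, with medians of -0.14, -0.81 and -0.30. The defining genes were thus mixed, with Lrat, Reln and Gfap under the floor and 4 of the 8 above it in non-transformed cells. The 9 genes are therefore called by their names and not by a cell type.

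Pericyte genes gave little more. Of 11, only 3 were above the floor on any array, and Cspg4, Abcc9 and Kcnj8 were under it on all, although Rgs5 was not. Mcam, an adhesion molecule, was 3.80 times lower with myr-Akt, whereas Tbx18, a mesenchymal transcription factor, was higher there, at 2969.9 against 1031.9 in non-transformed cells. Of 5 portal fibroblast genes above the floor, out of 8, 2 were lower with H-RasV12, 3 with myr-Akt and 3 with c-Myc, and 0, 0 and 1 higher. Fbln2, a matrix protein, was 7.11 and 4.19 times lower with myr-Akt and c-Myc. Gas6, a ligand of TAM receptors, was 12.1 times lower with H-RasV12.

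Markers of other cell types moved between the arrays too, and their part in the differences above was not tested. All 9 mesothelial genes passed the floor on some array, with 8, 3 and 2 lower and 0 higher with H-RasV12, myr-Akt and c-Myc. The summed signal of Msln, Upk3b, Wt1, Gpm6a and Lrrn4 was 6273 with H-RasV12, 25349 with myr-Akt and 24839 with c-Myc, against 32858 in non-transformed cells, and each of the 5 passed the floor except Lrrn4 with H-RasV12. Msln was, like that sum, lower in all 3 than in non-transformed cells, but its order among the transformed cultures was the reverse. It was at 3095.6 with H-RasV12, 238.3 with myr-Akt and 348.0 with c-Myc against 7836.5 in non-transformed cells. Of 8 hepatoblast and hepatocyte genes, 7 were above the floor on an array, with 4, 0 and 1 higher and 0, 1 and 1 lower with H-RasV12, myr-Akt and c-Myc. Although the cells are labelled as fetal liver progenitors, Alb, Afp, Ttr and Hnf4a passed the floor with H-RasV12 alone. Foxa2 passed it on all 4 arrays, at 4169.1 with H-RasV12, 3081.6 with myr-Akt and 1472.2 with c-Myc against 2821.2 in non-transformed cells. The summed signal of Alb, Afp, Ttr, Hnf4a, Apoa1 and Dlk1 was 5942.7 with H-RasV12, 247.4 with myr-Akt and 1942.5 with c-Myc, against 788.0 in non-transformed cells. Over all 8 genes, Foxa2 among them, the sum was 10204.4 with H-RasV12, 3340.4 with myr-Akt and 3432.4 with c-Myc, against 3639.8 in non-transformed cells. Single genes carried the first of these sums, since Apoa1 had 4299.7 with H-RasV12 and 638.2 in non-transformed cells. Dlk1 had 1898.0 with c-Myc, where the other 5 genes of that sum were under the floor. Of 4 biliary genes above the floor, 1, 0 and 0 were higher and 1, 2 and 1 lower. All 8 listed endothelial genes were under the floor on every array, as were Ptprc and Cd3e. These markers of endothelium, which makes Pdgfb, and of T cells, which carry Thy1, gave no signal above the floor. Cd34 and the VEGF receptor genes Flt1 and Flt4, also genes of endothelium but kept in other lists, did pass it. Flt4 had 381.1 with H-RasV12, 856.1 with myr-Akt and 342.2 with c-Myc, against 934.4 in non-transformed cells. Flt1 passed with H-RasV12 (254.3) and in non-transformed cells (109.3), and Cd34 in non-transformed cells alone (540.5). Of 7 macrophage genes 2 were above the floor and of 5 blood cell genes 1, with 0 past 2-fold.

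The genes that bind or are bound by Alcam, Thy1 and Ecm1 were looked at next. Of 13 above the floor, 1 was higher and 0 lower with H-RasV12 (median -0.044), 0 and 6 with myr-Akt (-0.91) and 0 and 5 with c-Myc (-0.80). Itgb3, the integrin beta chain that Thy1 binds, had signals of 1744.1 with H-RasV12, 277.9 with myr-Akt and 172.5 with c-Myc, against 839.8 in non-transformed cells. Tgfb1 had 1797.7 with H-RasV12, 50.8 with myr-Akt and 126.4 with c-Myc against 1119.6 in non-transformed cells, so it was at least 11.2 times lower with myr-Akt and 8.86 times with c-Myc. Ltbp1, which holds latent TGF-beta in the matrix, was 7.82 and 10.0 times lower with myr-Akt and c-Myc. Cd6, the receptor of Alcam on T cells, was under the floor on all arrays.

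Rgs5 was also set beside its family. Of 17 other RGS genes with a probe set, 9 were above the floor on an array, and 1, 1 and 0 were higher and 1, 3 and 3 lower with H-RasV12, myr-Akt and c-Myc. Rgs16 and Rgs17 were, like Rgs5, under the floor with myr-Akt and with c-Myc alone. Rgs16 had signals of 267.5 with H-RasV12, 7.1 with myr-Akt and 30.1 with c-Myc against 512.6 in non-transformed cells, and Rgs17 had 598.3 with H-RasV12, 73.4 with myr-Akt and 4.9 with c-Myc against 518.3 in non-transformed cells. Rgs2, which acts on Gq, was 2.63 times higher with H-RasV12 and at least 6.92 times lower with c-Myc. Rgs10 was higher with myr-Akt, at 3352.0 against 1567.0 in non-transformed cells.

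Thy1 and Alcam were likewise set beside other surface genes, GPI-anchored or with immunoglobulin domains for the most part. Of 14 of these, 2 were higher and 3 lower with H-RasV12 (median -0.53), 1 and 9 with myr-Akt (-1.29) and 1 and 7 with c-Myc (-0.98). Ncam1, a neural and stellate adhesion molecule, was 9.08 and 9.25 times lower with myr-Akt and c-Myc, Vcam1, a leukocyte adhesion molecule, 7.47 and 12.9 times, and Cd44, the hyaluronan receptor, 7.45 and 7.42 times. Cd24a, a GPI-anchored epithelial progenitor protein, went the other way and had signals of 8501.5 with H-RasV12, 11635 with myr-Akt and 4080.8 with c-Myc against 3212.3 in non-transformed cells. The genes farthest past 2-fold in each list were also checked by their next brightest probe set, where that was above the floor. Other list genes named up to this point, such as Wt1, were not checked in this way. For the checked genes named so far, the next brightest probe set kept the direction of each difference past 2-fold from non-transformed cells. Besides Pdgfrb and Rgs5, given above, it fell short of 2-fold for Pcsk5 (0.80) with c-Myc. With H-RasV12 it fell short for Gab1 (-0.93), Fosl1 (0.81) and Rgs2 (0.98). As bounds with both myr-Akt and c-Myc, it fell short for Rgs17 (-0.96), Tgfb1 (-0.10) and Ltbp1 (-0.39).

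Genes of like pattern were found by the distance between log2 signals centred over the 4 arrays, among genes above the floor on the same arrays, with each gene's 5 nearest kept. Nearest to Pdgfa was Kat2b (distance 0.032 log2 units among 8771 genes), to Pdgfc Nfkbiz (0.051), to Alcam Zfp57 (0.059) and Notch2 (0.061), and to Ecm1 Serpinb6b (0.18) and Ndrg4 (0.18). For Pdgfra, Pdgfrb, Rgs5 and Thy1 the pool was 421 genes that passed the floor with H-RasV12 and in non-transformed cells alone, so likeness rests on those 2 signals. Nearest were Slco3a1 to Pdgfra (0.15), Srgap3 to Pdgfrb (0.24), Thbs2 (0.0097) and Usp18 (0.023) to Rgs5, and Syne1 to Thy1 (0.051). For Pdgfb, with 57 genes to compare, it was Endod1 (0.30). Distances among the 9 genes were also taken, between those above the floor on the same arrays. The smallest were 0.53 for Pdgfrb with Rgs5, 0.55 for Pdgfra with Rgs5 and 0.73 for Pdgfrb with Thy1. Then came 0.88 for Pdgfc with Alcam, 0.88 for Pdgfa with Alcam and 0.94 for Pdgfra with Pdgfrb. Pdgfc with Ecm1 followed at 0.95 and Pdgfa with Pdgfc at 1.02. With 4 arrays such distances describe shape only.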

How the data were processed

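RNA of 4 cultures was measured on 4 Affymetrix mouse arrays, 1 per group, with groups taken from the labels. Per the submitters' processing notes the authors used MAS5, and their deposited table holds 1 linear intensity per probe set. The sources used here give no version of it. The values show that the authors' scaling left a trimmed mean (2% cut at each end) of 500.003 on every array.

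From these, 64 control probe sets were left out, 34945 probe sets with 1 symbol were kept and 932 with several and 9160 with none were not named. Entrez identifiers of the kept probe sets led to 0 changed symbols against RefSeq. The brightest probe set stood for a gene, signals were floored at 20% of the trimmed mean and log2 was taken. With 1 array a group no difference between groups was tested. Precision is limited by the number of arrays. Named genes are the 9 genes, all their probe sets, up to 6 genes past 2-fold in each of 18 gene lists with any defining marker, and the nearest genes by pattern. Further list genes are named where their role calls for it and were picked after values were seen, as were the CCAAT and CArG boxes. The 9 genes and the lists were chosen with earlier results of these data known. The code for floors and calls was checked on simulated arrays. Changed genes there started well above the floor, so that check hardly touched bounds. Alternatives were other floors, a pseudocount, quantile normalisation, median centring and other choices of probe set. Python 3.11.15, pandas 2.3.3 and numpy 2.4.6 were used.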

Additional observations from a re-analysis of the deposited data

How the results depend on the processing

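Of 63 recomputed counts of the genes past 2-fold, 56 stayed within 1.5 times of the reported count. When a pseudocount replaced the floor, 1 gene in place of 3 was lower with H-RasV12 than in non-transformed cells, since Pdgfa and Pdgfb came to -0.95 and -0.98. With the mean over probe sets, 4 in place of 7 were lower with myr-Akt than in non-transformed cells, because probe sets at the floor pull the mean of Pdgfb, Pdgfra and Rgs5 (-0.61, -0.65 and -0.92) under 2-fold. The same mean took Pdgfra (-0.65) and Rgs5 (-0.92) under 2-fold with c-Myc, and Pdgfb (-0.61) with H-RasV12. Pdgfb (-0.22) with H-RasV12 and myr-Akt, and Pdgfra (-0.96) with myr-Akt and c-Myc, fell short with a floor of 40%. Under the 40% floor, and likewise with the mean over probe sets, 3 in place of 5 genes differed between H-RasV12 and myr-Akt and 3 in place of 5 between H-RasV12 and c-Myc, Pdgfra and Rgs5 being the ones that dropped. With a floor at 10%, 1 in place of 0 differed between myr-Akt and c-Myc, namely Pdgfb at -1.64. With probe sets ending in plain _at alone, Pdgfc has none and Pdgfrb rests on a probe set at the floor, where its differences of -0.0043 are no measure. No difference past 2-fold changed sign under any of the 7 alternatives. Between the 9 genes' 54 differences, quantile normalisation moved 1 across the 2-fold line and median centring 0. The arrays' scaling alternatives moved the count in any list by at most 1 gene and turned no list's median. A single array per group limits all of this, and depth as such does not apply to intensities, for which the distance of a signal from the floor sets what can be measured. No paired analysis was possible because each group holds 1 array, and none could be left out.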

Other observations

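The VEGF family and the receptor kinases closest in structure to the PDGF receptors were not described above, apart from signals of Flt1 and Flt4. Of 10 genes above the floor, out of 13 with a probe set, 2 were higher and 2 lower by 2-fold or more with H-RasV12 (median log2 difference -0.36), 0 and 4 with myr-Akt (-0.30) and 0 and 5 with c-Myc (-1.19). Pgf, placental growth factor, had signals of 656.2 with H-RasV12, 58.5 with myr-Akt and 33.1 with c-Myc, against 261.7 in non-transformed cells, which is 2.51 times higher with H-RasV12 and at least 2.62 times lower with the other 2. Vegfc, a lymphatic growth factor, was 1.62, 3.92 and 3.36 times lower, and Csf1, the macrophage growth factor, 1.55, 2.33 and 3.16 times lower. Of the receptor genes, Flt1 was 2.33 times higher with H-RasV12, and Flt4 was 2.45 and 2.73 times lower with H-RasV12 and c-Myc. Kdr, Kit and Flt3 were under the floor on every array. Csf1r passed it only with H-RasV12 (145.4) and myr-Akt (119.1). Vegfa, the main angiogenic factor, was 2.78 times lower with c-Myc, at 625.2 against 1739.1 in non-transformed cells (-0.94 on the log2 scale by its next probe set).

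Cd34, a sialomucin of fibroblasts and endothelium, was at 49.3 with H-RasV12, 22.9 with myr-Akt and 43.0 with c-Myc, all under the floor, and at 540.5 in non-transformed cells, which bounds the log2 difference at -2.43 or lower in each. Eln, elastin, was above the floor with myr-Akt (185.7) and c-Myc (261.0), and under it with H-RasV12 (21.8) and in non-transformed cells (66.1).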
